A study of Mus musculus with 9 samples.

Results

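The enzymes of the tricarboxylic acid (TCA) cycle were examined in polyA-enriched RNA-seq of E14, a mouse embryonic stem cell line of strain 129/Ola, in 3 culture states with 3 biological replicates each. The members were fixed by name as 9 genes, Cs, Idh1, Idh2, Idh3a, Ogdh, Suclg1, Sucla2, Fh1 and Mdh2, out of the 38293 genes in the count table, and all 9 had counts in every library. Naive cells (mESC-2i) were grown without serum in N2B27 medium, with the MEK inhibitor PD0325901 at 1 μM, the GSK3 inhibitor CHIR99021 at 3 μM and leukaemia inhibitory factor (LIF) at 10 ng/ml. Serum-grown cells (mESC-ser), which the labels call primed, had the same LIF concentration in DMEM with 15% foetal bovine serum on gelatin, without the inhibitors. Epiblast-like cells (EpiLC) were derived from naive cells on fibronectin in N2B27 with 1% KSR, bFGF at 12 ng/ml and activin A at 20 ng/ml. All libraries came from 1 cell line, and the states differ in basal medium, serum and coating as well as in signalling factors, so these cannot be told apart. The p-values measure only the spread between the replicate cultures of this line.

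The TCA cycle runs in the mitochondrial matrix, where it oxidises the acetyl group of acetyl-CoA to CO2 and passes the electrons to NADH and FADH2 for respiration. Its intermediates also leave the cycle. Citrate is a source of cytosolic acetyl-CoA for lipid synthesis and histone acetylation. The cosubstrate of TET enzymes and of many, not all, histone demethylases is α-ketoglutarate, and succinate and fumarate inhibit the enzymes that use it in this way. The balance of α-ketoglutarate and succinate is for that reason a much studied property of naive pluripotent cells.

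The 9 enzymes did not move as one group. In mESC-ser against mESC-2i, 3 of the 9 were lower (Idh1, Idh2 and Fh1), 1 was higher (Ogdh) and 5 did not pass. Of all 15728 genes tested there, 30.3% were called lower and 25.9% higher. In EpiLC against mESC-2i, Idh1 and Idh2 were again lower and Suclg1, Fh1 and Mdh2 were higher, beside 37.8% of all genes called lower and 32.0% called higher. In EpiLC against mESC-ser, Idh1, Suclg1, Fh1 and Mdh2 were higher and Ogdh was lower, where 35.5% of all genes were called higher and 37.8% lower. A gene was called when edgeR's quasi-likelihood test gave an adjusted p under 0.05 over all tested genes with an absolute log2 fold change over 0.5. Libraries of the compared states did not overlap in CPM for 6 of the 9 in mESC-ser against mESC-2i (70.6% of all genes), 5 of 9 in EpiLC against mESC-2i (81.8%) and 8 of 9 in EpiLC against mESC-ser (85.7%). With 9 genes and so many genes called, these counts are no result about the group, and what follows describes which enzymes moved and by how much. Each pair of comparisons shares 1 set of 3 libraries, so the 3 comparisons are not independent of each other.

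**Figure D1:**
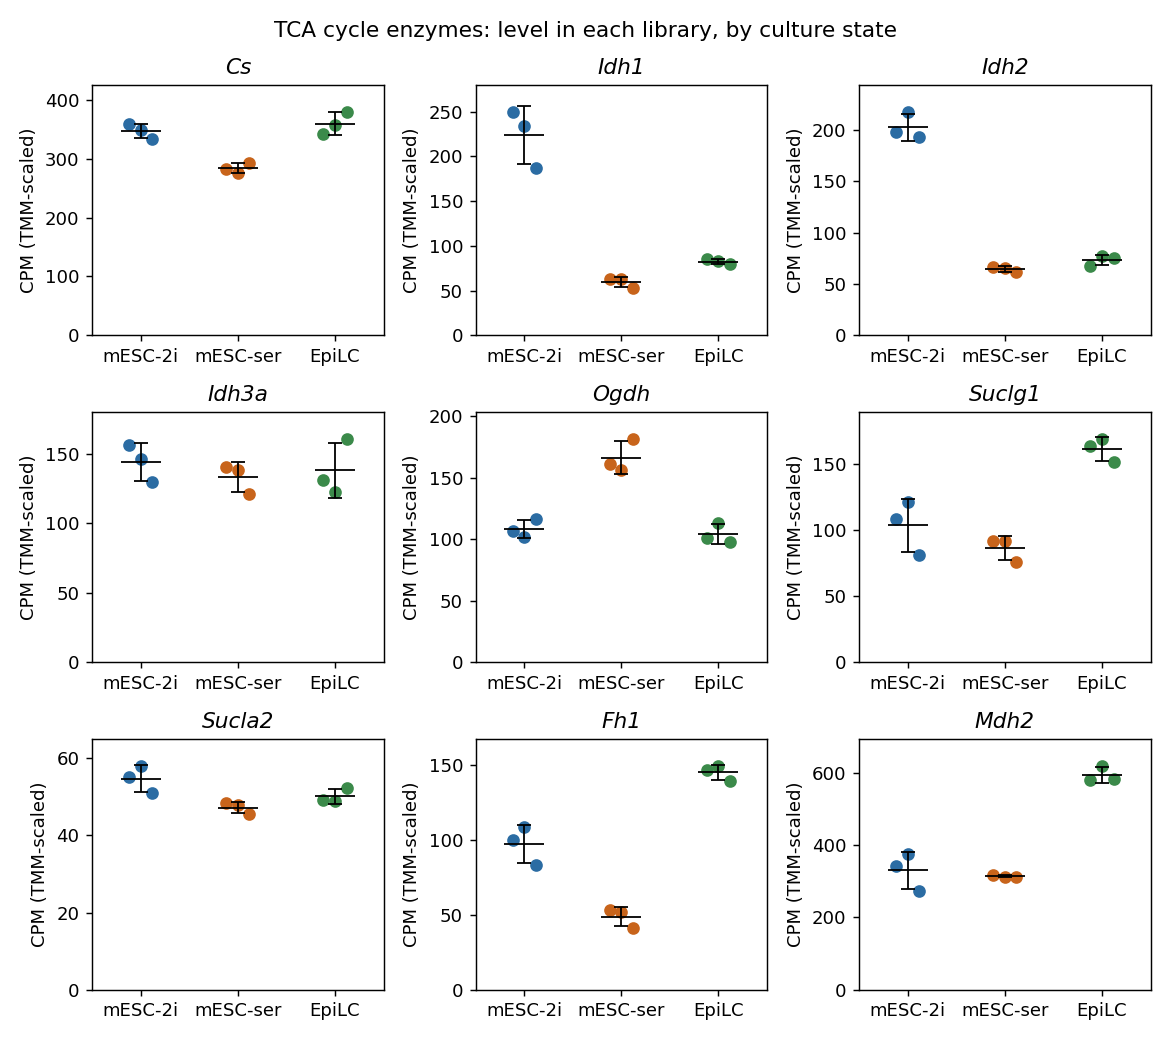
Level of each of the 9 enzymes in every library, as CPM (counts scaled to a common library size by TMM, linear axis from 0), by culture state. Points are libraries, and the bar and whiskers are the mean ± SD of 3. Idh1 and Idh2 stand high in mESC-2i alone, Fh1 and Mdh2 are highest in EpiLC, Ogdh is highest in mESC-ser, and Idh3a overlaps in all 3 states.

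The states were first checked on their marker genes, by the summed RPKM (CPM divided by the exonic length in kilobases) of 6 genes a list. The naive markers Nanog, Klf4, Esrrb, Zfp42, Prdm14 and Tbx3 summed to between 706 and 764 in mESC-2i, between 439 and 471 in mESC-ser, and between 35.3 and 39.5 in EpiLC. The EpiLC markers Fgf5, Pou3f1, Otx2, Dnmt3b, Dnmt3a and Lef1 summed to between 17.7 and 20.2 in mESC-2i, between 141 and 168 in mESC-ser, and between 409 and 426 in EpiLC. The summed markers of primitive endoderm were at most 5.42, those of trophectoderm at most 12.0 and those of fibroblasts at most 12.5 in any library. These sums differed between states. In mESC-2i, mESC-ser and EpiLC the means were 3.49, 5.1 and 1.29 for primitive endoderm and 11.6, 6.31 and 1.34 for trophectoderm. For fibroblasts they were 6.58, 9.95 and 11.8, and Thy1 alone was at 9.87 in EpiLC. The part of these markers in the results was not tested. Of the 6 genes in each of these lists, Elf5 (trophectoderm) and Lum (fibroblasts) had 3 or fewer counts in every library. The libraries held between 7187576 and 16829549 counts. The share of counts from the mitochondrial genome was 5.86% to 7.98% in mESC-2i, 3.66% to 4.31% in mESC-ser and 6.0% to 6.52% in EpiLC, and that of 82 ribosomal protein genes was 4.73% to 6.81%, 2.66% to 3.28% and 10.7% to 11.2%. Fold changes also moved with gene length. Across protein-coding genes, Spearman's rho between log2 fold change and exonic length was 0.28 for mESC-ser against mESC-2i, -0.30 for EpiLC against mESC-2i and -0.50 for EpiLC against mESC-ser, so a fit corrected for length and GC content is given below where it changes a member's call. The part of these shares and of length in the results was not tested further.

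Summed over the 9 enzymes, the level was lowest in mESC-ser. As a share of all counts in a library they made up 0.160% to 0.186% in mESC-2i, 0.122% to 0.128% in mESC-ser and 0.146% to 0.149% in EpiLC, 3 ranges without overlap. Per length, after TMM scaling, their summed RPKM was 425 ± 40.6 in mESC-2i, compared with 285 ± 6.39 in mESC-ser and 424 ± 9.19 in EpiLC (mean ± SD, n = 3 each). These sums depend on the length used. By the longest transcript in place of merged exons, Mdh2 was at 205 RPKM in mESC-2i and 370 in EpiLC, in place of 92.6 and 167. The sums by that length are not given here. By merged exonic length, Mdh2 had the highest mean level in every state, and Sucla2 had the lowest. The orders below use this length and depend on it. By the longest transcript, Mdh2 was still highest in every state. Fh1 (18.5 RPKM) was then below Sucla2 (21.2) in mESC-ser, and Cs (116) was above Idh2 (113) and Idh1 (97.2) in mESC-2i. In mESC-2i the order was Mdh2, Idh1, Idh2, Cs, Fh1, Idh3a, Suclg1, Ogdh and Sucla2, with overlapping libraries among Mdh2, Idh1 and Idh2 and between neighbours from Fh1 to Ogdh. In mESC-ser it was Mdh2, Cs, Ogdh, Idh3a, Idh2, Idh1, Suclg1, Fh1 and Sucla2, where only Idh3a with Idh2 and Idh1 with Suclg1 overlapped among neighbours. In EpiLC it was Mdh2, Cs, Fh1, Suclg1, Idh1, Idh2, Idh3a, Ogdh and Sucla2, with overlap between Idh1 and Idh2 and between Idh2 and Idh3a. In bulk RNA, fewer cells expressing a gene and less RNA per cell cannot be told apart.

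**Figure D2:**
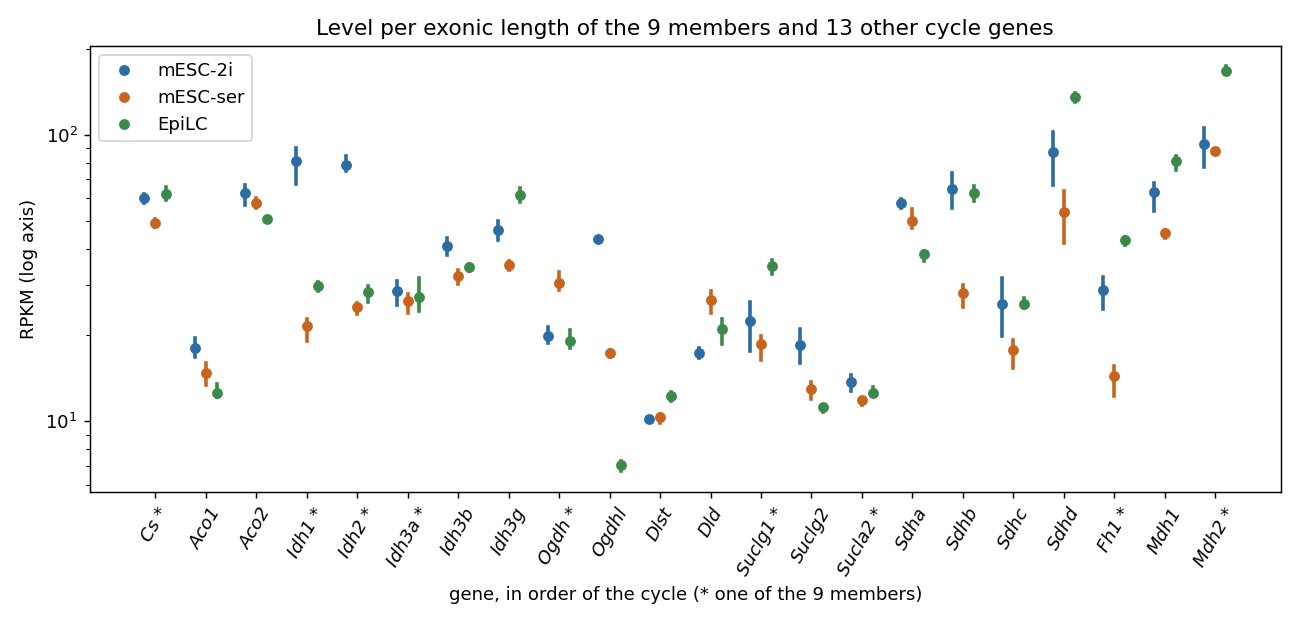
Level per exonic length (RPKM, log axis) of the 9 enzymes, marked with an asterisk, and 13 other genes of the cycle, ordered along the cycle. Points are means of 3 libraries and lines run from the lowest to the highest library. Mdh2 is the highest of the 9 in each state, and the isocitrate dehydrogenases Idh1 and Idh2 fall from means of 80.8 and 78.3 RPKM in mESC-2i to between 21.5 and 29.7 in the other states.

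Citrate synthase (Cs; ENSMUSG00000005683, GRCm38 chr10:128337734-128362479, plus strand) condenses acetyl-CoA with oxaloacetate and opens the cycle. Cs was at 358, 349 and 334 CPM in mESC-2i, at 283, 276 and 293 in mESC-ser, and at 342, 357 and 379.9 in EpiLC. The mESC-ser libraries lay below all others, and mESC-2i and EpiLC overlapped. The log2 difference between mESC-ser and mESC-2i was -0.32 ± 0.09 (SE; edgeR, adjusted p = 0.0114) and that between EpiLC and mESC-ser was 0.41 ± 0.08 (edgeR, adjusted p = 9.69e-05). Both were under the fold threshold, so Cs was called in neither. With the length and GC correction, Cs was called higher in EpiLC, by 0.94 against mESC-ser (edgeR, adjusted p = 1.01e-09) and by 0.58 against mESC-2i (edgeR, adjusted p = 6.47e-05). The difference between EpiLC and mESC-2i was 0.05 without the correction and -0.29 with total-count scaling. Of the 50-base windows of Cs transcripts, 2.01% also occur in another gene, Csl, so a small part of its reads could be shared.

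Idh1 and Idh2 showed the largest differences of the 9 members between mESC-2i and each of the other states. They turn isocitrate into α-ketoglutarate by distinct routes: Idh3a is the catalytic subunit of the NAD-dependent mitochondrial enzyme of the cycle proper, while Idh2 (mitochondrial) and Idh1 (cytosolic and peroxisomal) are NADP-dependent and reversible. Idh1 and Idh2 lie on different chromosomes. The stretches upstream of every annotated start of both genes are shown because these genes had the most similar profile of any pair of members (below). They come from RefSeq promoter windows on GRCm38.p6, which exist for 8 of the 9 members, and are written 5′ to 3′ on the gene's own strand, for Idh1 at chr1:65186501-65186729 (minus strand) and for Idh2 at chr7:80115393-80115600 (minus strand).
Idh1: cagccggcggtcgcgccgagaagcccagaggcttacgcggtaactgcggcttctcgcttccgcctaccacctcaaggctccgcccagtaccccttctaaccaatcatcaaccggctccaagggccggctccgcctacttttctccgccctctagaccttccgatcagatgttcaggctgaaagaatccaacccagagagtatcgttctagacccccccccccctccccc
Idh2: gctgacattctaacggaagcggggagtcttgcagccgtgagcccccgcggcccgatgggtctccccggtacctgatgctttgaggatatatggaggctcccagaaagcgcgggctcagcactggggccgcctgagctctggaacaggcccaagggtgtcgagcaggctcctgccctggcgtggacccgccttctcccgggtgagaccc
Both promoter windows were rich in CpG. The full 300-base windows around these starts held 23 CpGs for Idh1 and 20 for Idh2, against a median of 7 over all 32851 windows. The windows of the other members held 11 to 37, so this does not set Idh1 and Idh2 apart. None of 5 motifs searched on both strands was found in either gene's windows: the E-box CACGTG (in 7.15% of all windows), the NRF1 core GCATGCGC (2.71%), the cyclic AMP response element (CRE) TGACGTCA (1.79%), the ERR core AAGGTCA (4.72%) and the ETS core CCGGAAG (8.86%).

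Idh1 (ENSMUSG00000025950, chr1:65158616-65186500) was at 249.9, 234 and 187 CPM in mESC-2i, at 62.6, 63.1 and 52.7 in mESC-ser, and at 85.0, 82.7 and 79.2 in EpiLC. The 3 states did not overlap, with mESC-2i highest and mESC-ser lowest. Idh1 was 3.83-fold lower in mESC-ser than in mESC-2i, a log2 difference of -1.94 ± 0.14 (SE; edgeR, adjusted p = 9.82e-07). It was 2.72-fold lower in EpiLC than in mESC-2i (-1.44 ± 0.12; edgeR, adjusted p = 1.04e-06). The difference between EpiLC and mESC-ser was much smaller, 0.54 ± 0.09 (edgeR, adjusted p = 4.49e-05), and its call rested on the threshold. It was 0.45 to 0.47 and not called without the filter on low counts, with a filter of 10 counts in every library, in a fit of all 9 libraries, and without mESC-ser replicate 3, and with total-count scaling it was 0.20 (edgeR, adjusted p = 0.0536).

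Idh2 (ENSMUSG00000030541, chr7:80094846-80115392) was at 198, 218 and 193 CPM in mESC-2i, at 66.9, 65.8 and 61.4 in mESC-ser, and at 67.7, 76.8 and 75.4 in EpiLC. As for Idh1, every mESC-2i library was far above the others, while the lowest EpiLC library was just above the highest mESC-ser library. Idh2 was 3.19-fold lower in mESC-ser (-1.67 ± 0.10; edgeR, adjusted p = 3.69e-07) and 2.77-fold lower in EpiLC (-1.47 ± 0.10; edgeR, adjusted p = 2.36e-07) than in mESC-2i. EpiLC and mESC-ser differed by 0.25 ± 0.09 (edgeR, adjusted p = 0.0123), under the fold threshold, and this difference was -0.15 with the length and GC correction and -0.09 with total-count scaling. Idh1 and Idh2 have the shortest exonic lengths of the 9 members, 2771 and 2588 bases, and with the length and GC correction the mESC-ser against mESC-2i differences were -1.87 and -1.32, both still called.

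Idh3a (ENSMUSG00000032279, chr9:54586334-54604661) did not follow them. It was at 157, 147 and 129.6 CPM in mESC-2i, at 141, 139 and 121 in mESC-ser, and at 131, 123 and 161 in EpiLC, and all 3 states overlapped. The 95% interval of its log2 difference ran from -0.38 to 0.12 for mESC-ser against mESC-2i and from -0.33 to 0.20 for EpiLC against mESC-2i. The latter difference was 0.41 with the length and GC correction (edgeR, adjusted p = 0.00642) and -0.40 with total-count scaling. Both lay outside the interval and under the fold threshold. For EpiLC against mESC-ser the difference was 0.12 ± 0.10 (edgeR, adjusted p = 0.295), which became 0.57 and was called with the length and GC correction (edgeR, adjusted p = 2.91e-05). The other subunits of the same enzyme are regulatory or accessory. Idh3g was higher in EpiLC than in mESC-ser by 0.88 ± 0.08 (edgeR, adjusted p = 1.83e-08), and Idh3b was called in no comparison.

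The mixture of isocitrate dehydrogenase message therefore differed between states. Of the summed RPKM of Idh1, Idh2 and Idh3a, Idh3a made up 15.2% ± 0.509 in mESC-2i, compared with 36.2% ± 0.283 in mESC-ser and 31.9% ± 3.31 in EpiLC (mean ± SD, n = 3). The log2 ratio of Idh3a to Idh2 counts within a library, which needs no scaling between libraries, was -0.49 ± 0.14, 1.04 ± 0.05 and 0.91 ± 0.21 in the same order. It differed among the states in an exact permutation test over all 1680 assignments of the 9 libraries (p = 0.0143, adjusted over 5 ratios 0.0179), with mESC-2i apart from the other states, which overlapped. The 5 ratios were chosen with earlier results of these data known, which the adjustment does not account for. This ratio also uses the same Idh2 counts as the calls above, so it is no separate evidence. These ratios are not corrected for length, and Idh3a has 5072 exonic bases against 2588 in Idh2. When libraries were permuted only within replicate numbers (the replicate block), the exact permutation p was 0.0556. The ratio of Idh2 to Idh1 was -0.13 ± 0.19, 0.13 ± 0.08 and -0.17 ± 0.14, and it did not pass (exact permutation p = 0.132, adjusted 0.132).

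**Figure D3:**
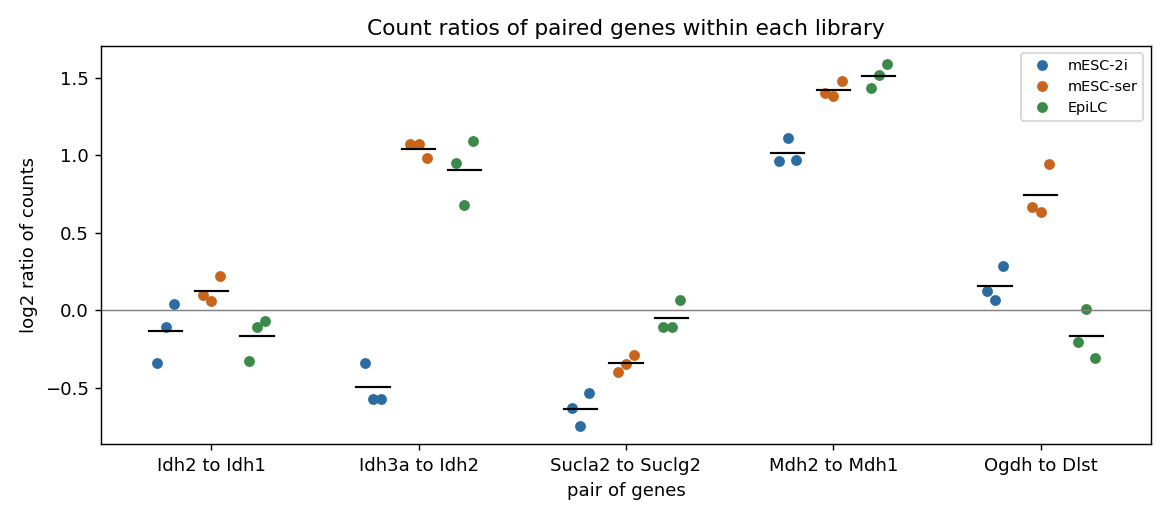
Log2 ratio of the counts of paired genes within each library, by state (points are libraries, lines are means of 3). The ratio of Idh3a to Idh2 is below 0 in all mESC-2i libraries and above 0 in all others, and the 3 states do not overlap for Sucla2 to Suclg2 and for Ogdh to Dlst.

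Ogdh (ENSMUSG00000020456, chr11:6291633-6356642, plus strand), the E1 subunit of the α-ketoglutarate dehydrogenase complex that makes succinyl-CoA, was the only member whose mean was highest in mESC-ser. It was at 107, 102 and 117 CPM in mESC-2i, at 161, 157 and 182 in mESC-ser, and at 101, 113 and 98.3 in EpiLC. All mESC-ser libraries were above all others, and mESC-2i and EpiLC overlapped. Ogdh was 1.5-fold higher in mESC-ser than in mESC-2i (0.59 ± 0.10; edgeR, adjusted p = 4.85e-04) and 1.52-fold lower in EpiLC than in mESC-ser (-0.60 ± 0.09; edgeR, adjusted p = 5.17e-06). With an exonic length of 5456 bases it is among the longer members, and with the length and GC correction the second difference was -0.32 and no longer called. EpiLC and mESC-2i differed by -0.06, with a 95% interval from -0.27 to 0.15. This difference depended on the scaling. It was 0.44 with the length and GC correction (edgeR, adjusted p = 3.13e-04) and -0.40 with total-count scaling. Both lay outside the interval and under the fold threshold.

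Of its partners in the complex, Dlst, the E2 subunit, had mean levels of 10.2 (mESC-2i), 10.4 (mESC-ser) and 12.2 RPKM (EpiLC) and was called in no comparison, although with the length and GC correction it was called higher in EpiLC than in both other states. The log2 ratio of Ogdh to Dlst counts was 0.16 ± 0.12 in mESC-2i, compared with 0.75 ± 0.17 in mESC-ser and -0.17 ± 0.16 in EpiLC, without overlap between states (exact permutation p = 0.00357, the smallest these assignments can give, adjusted 0.00893). Dld, the E3 subunit that the complex shares with pyruvate dehydrogenase, was, like Ogdh, higher in mESC-ser than in mESC-2i, by 0.59 ± 0.11 (edgeR, adjusted p = 6.43e-04). Ogdhl, a paralogue of Ogdh, was at a mean of 43.4 RPKM in mESC-2i, compared with 17.3 in mESC-ser and 7.05 in EpiLC, and all 3 of its differences were called. Per length, the mean of Ogdhl was above that of Ogdh in mESC-2i (43.4 against 19.9 RPKM) and below it in mESC-ser (17.3 against 30.5) and EpiLC (7.05 against 19.1), without overlap in any state.

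Succinyl-CoA ligase, which makes ATP or GTP while releasing succinate, is a dimer of the α subunit Suclg1 and either the ATP-forming β subunit Sucla2 or the GTP-forming β subunit Suclg2. Suclg1 (ENSMUSG00000052738, chr6:73248382-73276911) was at 108, 121 and 81.2 CPM in mESC-2i, at 91.4, 91.8 and 75.7 in mESC-ser, and at 163, 169 and 151 in EpiLC. Every EpiLC library was above every other library, and mESC-2i and mESC-ser overlapped. Suclg1 was nevertheless lower in mESC-ser in all 3 same-numbered pairs. The difference was -0.28 with an adjusted p of 0.12 in edgeR, or -0.27 with 0.00969 under the replicate block, under the fold threshold in both. Suclg1 was 1.96-fold higher in EpiLC than in mESC-ser (0.97 ± 0.09; edgeR, adjusted p = 5.33e-08) and 1.56-fold higher than in mESC-2i (0.64 ± 0.13; edgeR, adjusted p = 0.0012). The second call depended on mESC-2i replicate 3, the lowest of its group. Without it the difference was 0.49 and under the fold threshold, and with total-count scaling it was 0.30 and did not pass (edgeR, adjusted p = 0.0556).

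Sucla2 (ENSMUSG00000022110, chr14:73525319-73596142) was called in no comparison without correction. It was at 55.1, 58.0 and 51.1 CPM in mESC-2i, at 48.3, 47.8 and 45.5 in mESC-ser, and at 49.1, 48.9 and 52.4 in EpiLC. The mESC-ser libraries were below all others by a small margin, but the differences from mESC-2i (-0.24 ± 0.10; edgeR, adjusted p = 0.0601) and from EpiLC (0.16 ± 0.08, EpiLC higher; edgeR, adjusted p = 0.0942) did not pass. With the replicate block the adjusted p of the former was 0.0228, still under the fold threshold. With the length and GC correction Sucla2 was called higher in EpiLC than in mESC-ser by 0.52 (edgeR, adjusted p = 2.89e-06). The other β subunit, Suclg2, was lower than in mESC-2i both in mESC-ser (-0.54; edgeR, adjusted p = 0.00283) and in EpiLC (-0.72; edgeR, adjusted p = 1.38e-04), the latter not called with the length and GC correction. The log2 ratio of Sucla2 to Suclg2 counts was -0.64 ± 0.11 in mESC-2i, compared with -0.34 ± 0.05 in mESC-ser and -0.05 ± 0.10 in EpiLC, 3 ranges that did not overlap (exact permutation p = 0.00357, adjusted 0.00893). Of the summed RPKM of the 3 ligase genes, Suclg1 held 40.8% ± 2.5 in mESC-2i, compared with 42.9% ± 1.54 in mESC-ser and 59.4% ± 1.49 in EpiLC. These shares use merged exonic lengths, which for Suclg1 is 4617 bases against 2767 in its longest transcript.

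Fumarase (Fh1; ENSMUSG00000026526, chr1:175600374-175625635), which hydrates fumarate to malate, had the widest difference between EpiLC and mESC-ser of the 9 members. It was at 99.9, 109 and 83.6 CPM in mESC-2i, at 53.0, 51.8 and 41.5 in mESC-ser, and at 147, 149 and 139.6 in EpiLC. The 3 states did not overlap, with mESC-ser lowest and EpiLC highest. Fh1 was 2.03-fold lower in mESC-ser than in mESC-2i (-1.02 ± 0.14; edgeR, adjusted p = 9.14e-05) and 3.13-fold higher in EpiLC than in mESC-ser (1.65 ± 0.10; edgeR, adjusted p = 1.29e-10). It was 1.49-fold higher in EpiLC than in mESC-2i (0.58 ± 0.11; edgeR, adjusted p = 4.91e-04), a call that was lost without mESC-2i replicate 3 (0.48) and with total-count scaling (0.24; edgeR, adjusted p = 0.0544).

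Mdh2 (ENSMUSG00000019179, chr5:135778480-135790398, plus strand), the mitochondrial malate dehydrogenase that restores oxaloacetate, rose in EpiLC. It was at 341, 375 and 274 CPM in mESC-2i, at 316, 311 and 313 in mESC-ser, and at 581, 618 and 583 in EpiLC. The EpiLC libraries lay above all others, and the range of mESC-2i enclosed that of mESC-ser. Mdh2 was 1.99-fold higher in EpiLC than in mESC-ser (0.99 ± 0.08; edgeR, adjusted p = 2.28e-09) and 1.80-fold higher than in mESC-2i (0.85 ± 0.12; edgeR, adjusted p = 7.08e-05). Between mESC-ser and mESC-2i the 95% interval of the log2 difference ran from -0.37 to 0.17. With the length and GC correction that difference was 0.21 and not called (edgeR, adjusted p = 0.113). Mdh1, the cytosolic enzyme of the malate-aspartate shuttle, was higher in EpiLC than in mESC-ser by 0.90 ± 0.08 (edgeR, adjusted p = 2.08e-08). The log2 ratio of Mdh2 to Mdh1 counts was 1.02 ± 0.08 in mESC-2i, compared with 1.42 ± 0.05 in mESC-ser and 1.51 ± 0.08 in EpiLC (exact permutation p = 0.00714, adjusted 0.0119), with overlap between the last pair of states.

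Ogdh and Mdh2, whose differences between EpiLC and mESC-ser had opposite signs, were the members whose promoter windows held the CRE, the palindromic site of CREB and ATF family factors. The 30 bases around it are shown for both, with the CRE in capitals, for Ogdh at chr11:6291535-6291564 and for Mdh2 at chr5:135778511-135778540 (GRCm38.p6, plus strand). In Ogdh it began 51 bases before the first of its RefSeq starts, and in Mdh2 127 bases before the RefSeq start. That Mdh2 start lies downstream of the gene's first base in the GENCODE annotation, chr5:135778480. The Mdh2 CRE begins at chr5:135778522, so by that annotation it lies inside the gene.
Ogdh: acccaattctgTGACGTCAcgtcacgccca
Mdh2: ggagagaatcgTGACGTCAggcctcgctcg
The match is a description of these letters and says nothing about binding. Among the 6 Ogdh windows, others held the E-box, the NRF1 core or the ERR core, and the windows of Cs, Suclg1, Sucla2 and Fh1 held none of the 5 motifs.

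**Figure D4:**
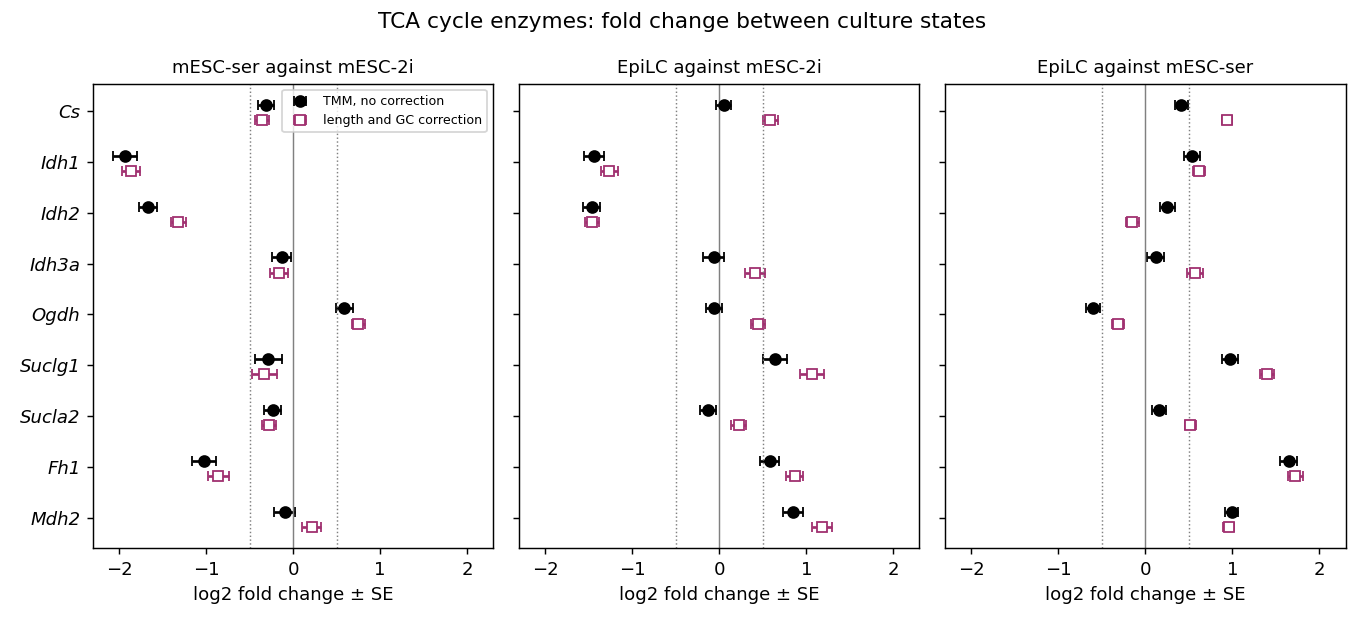
Log2 fold change ± SE (edgeR) of each of the 9 enzymes in the 3 comparisons, without correction (filled circles) and with the length and GC correction (open squares). Dotted lines mark 0.5 in either direction. In EpiLC against mESC-ser the corrected values of Cs, Idh3a, Ogdh and Sucla2 are higher than the uncorrected ones by more than their SEs, and 7 of the 9 are called higher with the correction against 4 without it. Without the correction, 35.5% of all tested genes are called higher in that comparison. The share with it is not given here.

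The correction moved the group's median across 0 in EpiLC against mESC-2i and kept its sign in the other comparisons. The median log2 fold change of the 9 members was -0.28 in mESC-ser against mESC-2i (all tested genes -0.04), -0.06 in EpiLC against mESC-2i (all genes -0.11) and 0.41 in EpiLC against mESC-ser (all genes -0.07). With the correction these medians were -0.33, 0.44 and 0.62, beside 0.02, 0.18 and 0.15 for all genes. In EpiLC against mESC-ser, 7 members were then called higher and none lower, in place of 4 and 1. Without the correction, 35.5% of all tested genes were called higher and 37.8% lower there. The share with it is not given here, so these counts are no result about the group. The calls of Idh1 and Idh2 against mESC-2i, and of Suclg1, Fh1 and Mdh2 in EpiLC against mESC-ser, were made with and without the correction.

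Over the 9 libraries, Idh1 and Idh2 had the highest Pearson r of log2 CPM of any pair of members (0.98), followed by Suclg1 and Mdh2 (0.96), while Ogdh ran against Fh1 (-0.94) and Cs (-0.92). These 9 points fall into 3 states, so r mainly reflects the order of the states. Among 9150 genes with a mean of at least 100 counts, the profiles most like each member were those of Ptms and Anp32a for Cs, Pttg1ip and Sccpdh for Idh1, Ckmt1 and Crxos for Idh2, Rap1a and Khdrbs3 for Idh3a, Palm3 and Nvl for Ogdh, Cops5 and Fundc2 for Suclg1, Spryd4 and Ascc1 for Sucla2, Ndufb9 and Ebpl for Fh1, and Apex1 and Sdc1 for Mdh2. The r was 0.99 or more for the closest gene of Idh1, Idh2, Ogdh, Suclg1, Fh1 and Mdh2, and was lowest for Idh3a (0.94 with Rap1a).

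For the gene lists that follow, the counts of called genes are no result about a list. Of all tested genes, 25.9% were called higher and 30.3% lower in mESC-ser against mESC-2i. These shares were 32.0% and 37.8% in EpiLC against mESC-2i, and 35.5% and 37.8% in EpiLC against mESC-ser. The other 13 genes of the cycle were counted beside the members. In mESC-ser against mESC-2i, 1 was higher (Dld) and 6 were lower, among them the succinate dehydrogenase subunits Sdhb (-1.23; edgeR, adjusted p = 1.54e-05), Sdhc (-0.56; 0.0127) and Sdhd (-0.72; 0.00595). Sdhc and Sdhd were not called with the length and GC correction, and Mdh1 (-0.50) was not called with it or with the replicate block. In EpiLC against mESC-ser, 5 were higher and 1 was lower: Sdhb, Sdhc, Sdhd, Idh3g and Mdh1 rose and Ogdhl fell. Sdhb, Sdhc and Sdhd thus had the same signs as Fh1, the next enzyme of the cycle, in both comparisons. The remaining subunit Sdha did not, at -0.32 in EpiLC against mESC-ser (edgeR, adjusted p = 0.00178), under the fold threshold. In EpiLC against mESC-2i, Sdhd was the only one of the 13 called higher (0.63), and Aco1, Ogdhl, Suclg2 and Sdha (-0.59) were lower. Sdhd was not called without mESC-2i replicate 3 or with total-count scaling, which left 0 of the 13 higher. With the length and GC correction 4 were higher (Idh3g, Dlst, Dld and Mdh1) and of the lower genes only Ogdhl was still called.

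**Figure D5:**
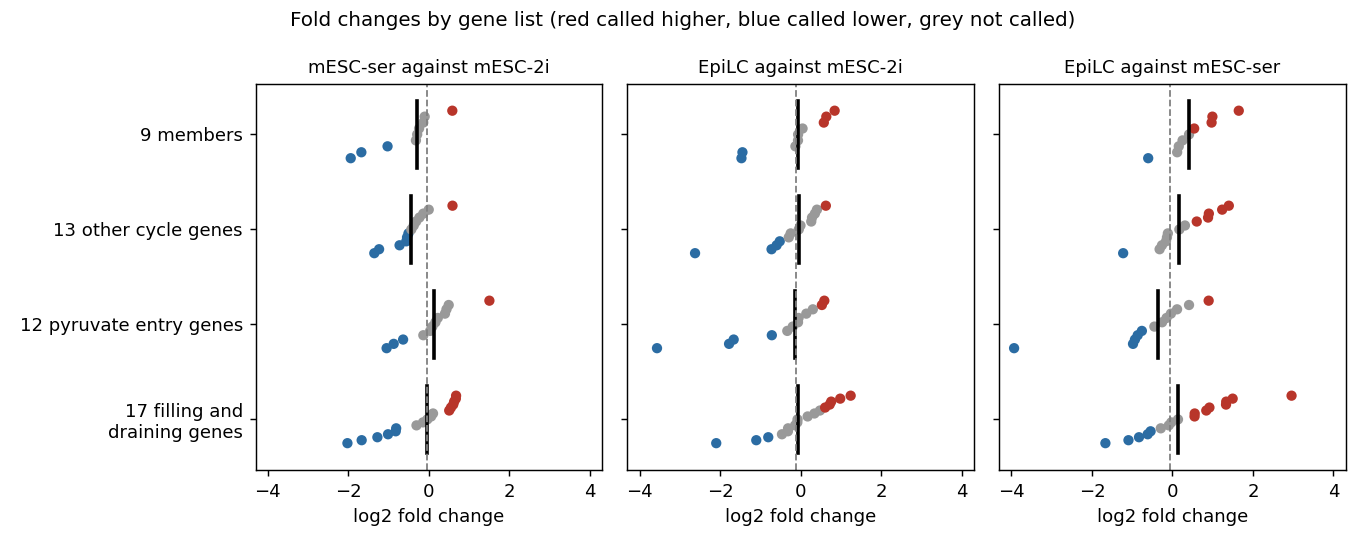
Log2 fold change of the 9 members, 13 other cycle genes, 12 genes of pyruvate entry and the 17 tested genes of reactions that fill or drain the cycle, in the 3 comparisons. Each point is a gene (red called higher, blue called lower, grey not called), black bars are list medians and the dashed line is the median of all tested genes. Called genes lie on both sides of 0 in all 4 lists.

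Pyruvate reaches the cycle through the mitochondrial pyruvate carrier and the pyruvate dehydrogenase complex, which PDK kinases switch off and PDP phosphatases switch on. Of all tested genes, 25.9% to 35.5% were called higher and 30.3% to 37.8% lower, depending on the comparison. Of the 12 genes of this step, 1 was higher and 3 were lower in mESC-ser against mESC-2i, 2 were higher and 4 lower in EpiLC against mESC-2i, and 1 was higher and 5 lower in EpiLC against mESC-ser. The first count was 2 higher under 8 of 11 other settings of scaling, filter, tool and fit and without 5 of the 6 libraries in turn, and in EpiLC against mESC-2i total-count scaling left 0 higher and 6 lower. Pdk1 was higher in mESC-ser than in mESC-2i by 1.51 (edgeR, adjusted p = 1.16e-06), and its difference between EpiLC and mESC-ser was -0.93, or -0.04 and not called with the length and GC correction. Pdk4 was lower in EpiLC than in mESC-2i (-3.57; edgeR, adjusted p = 1.69e-06) and than in mESC-ser (-3.94; edgeR, adjusted p = 1.07e-09). Its level was low throughout, with 3 to 4 counts a library in EpiLC, 41 to 65 in mESC-2i and 76 to 116 in mESC-ser. The carrier subunit Mpc1 was lower in EpiLC than in mESC-2i (-1.66; edgeR, adjusted p = 3.82e-06), and so was Pdha1, the E1α subunit of the complex (-0.71; edgeR, adjusted p = 3.77e-05), the latter not called with the correction.

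Of 18 genes whose products feed or drain the cycle, 17 could be tested, since Me3 had 3 or fewer counts in every library. The shares of all tested genes were again 25.9% to 35.5% called higher and 30.3% to 37.8% called lower. In mESC-ser against mESC-2i, 6 of the 17 were higher and 6 lower, in EpiLC against mESC-2i 5 were higher and 3 lower, and in EpiLC against mESC-ser 8 were higher and 5 lower. In EpiLC against mESC-2i the balance turned with the scaling, with 2 higher and 5 lower by total counts and 7 higher and 1 lower with the length and GC correction. In EpiLC against mESC-ser the correction left 7 higher and 2 lower. Pck2, the mitochondrial phosphoenolpyruvate carboxykinase that uses oxaloacetate, had the same order of states as Fh1: it was lower in mESC-ser than in mESC-2i (-1.66; edgeR, adjusted p = 8.99e-07) and higher in EpiLC than in mESC-ser by 2.96 (edgeR, adjusted p = 1.73e-13). The citrate carrier Slc25a1 was lower in mESC-ser than in mESC-2i (-1.27; edgeR, adjusted p = 3.00e-06) and higher in EpiLC than in mESC-ser by 1.5 (edgeR, adjusted p = 4.97e-11). Me1, the cytosolic malic enzyme that like Idh1 makes NADPH, was lower than in mESC-2i both in mESC-ser (-2.02; edgeR, adjusted p = 6.43e-07) and in EpiLC (-2.09; edgeR, adjusted p = 5.16e-08). Around α-ketoglutarate, Glud1, which makes it from glutamate, was higher in mESC-ser than in mESC-2i by 0.68 (edgeR, adjusted p = 2.63e-04), and the mitochondrial aspartate aminotransferase Got2 was higher in EpiLC than in mESC-2i by 0.76 (edgeR, adjusted p = 5.92e-05). D2hgdh, which turns D-2-hydroxyglutarate into α-ketoglutarate, was higher in mESC-ser than in mESC-2i by 0.56 (edgeR, adjusted p = 0.0116).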

How the data were processed

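PolyA-enriched RNA of 9 E14 cultures was sequenced as 50 bp single-end reads. Per the submitters' processing notes, Trim Galore 0.6.6, HISAT2 2.2.1, Subread 2.0.1 and mm10 were used. The authors deposited a table of raw read counts per Ensembl gene id, not normalised. TMM scaling and the quasi-likelihood test of edgeR 4.0.16 in R 4.3.3 were run on these counts as deposited, for each pair of states on its 6 libraries, after filterByExpr, with Benjamini-Hochberg adjustment over all tested genes. CPM were scaled by TMM over 9 libraries, and RPKM used merged exonic lengths of the GENCODE annotation on GRCm38. Of the 38293 gene ids, 95.1% matched this annotation, which gave the gene symbols. Error terms of log2 differences are SEs from the fit; those of levels, shares and ratios are SDs of 3 libraries. Ratios used an exact permutation test of the between-group sum of squares over libraries. The length and GC correction used splines with 5 degrees of freedom as offsets. Replicates of a state differed by more than sampling noise (chi-square per degree of freedom 1.61 to 28.3), so each counted as 1 sample. Deviations of same-numbered mESC-ser and mESC-2i libraries correlated in all 3 pairs (0.129 to 0.345), and those of unlike-numbered libraries ran from -0.278 to 0.146. Replicate 1 of mESC-ser correlated more with mESC-2i replicate 2 (0.146) than with replicate 1 (0.129), so the replicate number pairs those states only in part. Fits were unpaired unless the replicate block is named. Same-numbered pairs with EpiLC reached at most 0.112 and not all exceeded 0.1. Counting strand is not given in the sources used here. The members, gene lists, ratios and motifs were chosen with earlier results of these data known. Named genes are the members, genes of the listed pathways and markers, and the 2 genes with the most similar profile to each member; within the pathway lists, examples were chosen after their values were seen. Some genes of these lists are counted but not reported here by name. The scripts were tested on simulated data.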

Additional observations from a re-analysis of the deposited data

How the results depend on the processing

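No member's fold change that was called changed sign under any alternative tried: RLE, upper-quartile or total-count scaling, TMM without mitochondrial and ribosomal protein genes, no filter or 10 counts in every library, DESeq2, 1 fit of 9 libraries, the replicate block, the length and GC correction, and leaving out each library. Of 459 such alternatives to the 27 fold changes of members, 440 kept the call, 11 lost it and 8 gained it. The RPKM orders, sums and shares above use merged exonic lengths and TMM scaling. Of 54 alternatives to the members' mean RPKM, by total counts or by the longest transcript, 44 moved it by at least the SD of 3 libraries. Below, the serum comparison is mESC-ser with mESC-2i, the EpiLC comparison is EpiLC with mESC-2i, and the third is EpiLC with mESC-ser. Total-count scaling moved the median of all genes to -0.45 in the EpiLC comparison and -0.41 in the third. The members' own median was then -0.40 and 0.072, and 1 member was called higher in the EpiLC comparison in place of 3. In the third comparison the median was 0.33 without a filter, 0.34 with 10 counts in every library and 0.34 in 1 fit. With the length and GC correction, alone or with the replicate block, it was 0.62 there (0.44 in the EpiLC comparison), with 7 members called higher and 0 lower. With the correction alone the median of all genes in the third comparison was 0.15. The share of all genes called with the correction is not given here. The replicate block alone changed no member's call, leaving 1 higher and 3 lower in the serum comparison, and for the ratio of Idh3a to Idh2 the blocked p was 0.0556, where the smallest possible is 0.0278. With an absolute log2 fold change over 1, the members called higher were 0 in the serum comparison, 0 in the EpiLC comparison and 1 in the third. Idh1, Idh2 and Fh1 were still called lower in the serum comparison, and Idh1 and Idh2 in the EpiLC comparison. Those called lower in the third were 0. The serum comparison then called 4935 of 15728 genes in all. The totals of the other comparisons are not given here, so these counts are no result about the group. Leaving out 1 library gave 8581 to 9391, 10608 to 11059 and 11183 to 11446 genes called in these comparisons, in that order. It gave 1 to 1, 1 to 3 and 3 to 4 members higher, 3 to 3, 2 to 2 and 1 to 1 lower, and medians of -0.34 to -0.19, -0.02 to 0.03 and 0.38 to 0.46. Permutation p ranged from 0.0429 (without mESC-2i replicate 1) to 0.2 for Idh2 to Idh1, 0.00357 to 0.025 for Idh3a to Idh2, 0.00357 for Sucla2 to Suclg2, 0.00714 to 0.0143 for Mdh2 to Mdh1 and 0.00357 to 0.00714 for Ogdh to Dlst. Each member had at least 368 counts in every library, and for the members with the fewest counts the counting error is of the size of the spread between replicates.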
